A study of Homo sapiens with 26 samples.

Results

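The clustered protocadherins are cell-surface adhesion proteins of the cadherin superfamily, encoded by 3 neighbouring gene clusters, alpha, beta and gamma, on human chromosome 5. Members were the array rows whose platform annotation gives exactly 1 gene symbol beginning with PCDHA, PCDHB or PCDHG, with the brighter row kept where a symbol had 2. That rule gave 31 of the 18417 genes measured: 12 alpha genes, 18 beta genes (16 coding genes and the pseudogenes PCDHB17P and PCDHB18P) and 1 gamma gene, PCDHGB4. RefSeq lists 15 coding genes in the alpha cluster, 16 in the beta cluster and 22 in the gamma cluster, so the gamma cluster is represented by a single row and nothing can be said of it as a cluster.

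RNA was hybridised to Affymetrix Human Gene ST arrays. It came from NCCIT, a human embryonic carcinoma line that resembles pluripotent cells, grown in McCoy's medium with serum and transfected with Dharmacon siRNA through the PepMute reagent. The depletion groups were transfected with a single siRNA (siDNMT1, siDNMT3A, siDNMT3B, siDNMT3L), with DNMT1 siRNA and that of DNMT3A (siD1+3A), DNMT3B (siD1+3B) or the pair (siD1+3A+3B), or with combined DNMT3 siRNA (3A+3B, 3A+3L, 3B+3L, 3A+3B+3L). Control siRNA was given to the groups siNTC-1 and siNTC-2. Each of the 13 groups had 2 arrays. DNMT1 maintains DNA methylation through cell division, DNMT3A and DNMT3B establish it, while DNMT3L is a catalytically inactive partner of these. A single line was used, siRNA leaves part of the target transcript, and the labels do not say that duplicates were separate cultures, and every p-value below therefore reflects variation within pairs of arrays that could be purely technical.

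In neurons, each cell uses its own small choice of these genes, and the proteins bind in trans to identical combinations on other cells, which lets neurites of 1 cell recognise each other. Alpha and gamma variable exons each have their own promoter and are spliced to constant exons shared within the cluster, while every beta gene is a single coding exon. Most of the promoters share a conserved element with the core CGCT that is bound by CTCF, which with cohesin loops promoters to distant enhancers. CpG methylation of these promoters is known to go with silencing.

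The conserved element is shown because most of the members with a promoter sequence share it. It contains a CpG, the dinucleotide methylated by the depleted enzymes. RefSeq promoter windows of GRCh38.p14, from 250 bases before to 50 bases after the annotated start, were at hand for 25 members (26 windows, since PCDHGB4 has 2). The members PCDHA3, PCDHA13, PCDHB6, PCDHB11, PCDHB17P and PCDHB18P had none. Below, the 44 bases around CGCT are printed 5′ to 3′ with the core in capitals, first for the alpha genes that fell in siDNMT1.
PCDHA2 (chr5:140794777-140794820, + strand): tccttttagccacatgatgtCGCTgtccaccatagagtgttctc
PCDHA10 (chr5:140855837-140855880, + strand): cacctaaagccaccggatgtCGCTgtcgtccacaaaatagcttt
PCDHA12 (chr5:140875240-140875283, + strand): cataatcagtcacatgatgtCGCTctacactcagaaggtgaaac
The same stretch follows for the beta genes that fell in siDNMT1.
PCDHB5 (chr5:141135175-141135218, + strand): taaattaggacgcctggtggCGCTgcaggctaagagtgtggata
PCDHB16 (chr5:141182306-141182349, + strand): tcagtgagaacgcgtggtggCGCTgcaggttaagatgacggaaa
PCDHB9 (chr5:141187070-141187113, + strand): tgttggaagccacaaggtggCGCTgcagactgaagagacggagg
PCDHB10 (chr5:141192295-141192338, + strand): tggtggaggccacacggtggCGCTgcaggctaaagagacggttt
PCDHB12 (chr5:141208639-141208682, + strand): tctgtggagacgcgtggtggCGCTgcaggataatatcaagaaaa
PCDHB13 (chr5:141213861-141213904, + strand): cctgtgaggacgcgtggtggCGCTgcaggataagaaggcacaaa
PCDHB14 (chr5:141223259-141223302, + strand): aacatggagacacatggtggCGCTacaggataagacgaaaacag
These members did not pass the test in siDNMT1, and most of them carry the same letters.
PCDHA4 (chr5:140806975-140807018, + strand): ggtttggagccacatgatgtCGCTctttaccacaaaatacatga
PCDHB2 (chr5:141094540-141094583, + strand): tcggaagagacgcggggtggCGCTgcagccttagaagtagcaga
PCDHB4 (chr5:141121719-141121762, + strand): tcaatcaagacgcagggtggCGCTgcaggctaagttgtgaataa
PCDHB7 (chr5:141172562-141172605, + strand): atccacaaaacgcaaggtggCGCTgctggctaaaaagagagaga
PCDHB1 (chr5:141051270-141051313, + strand): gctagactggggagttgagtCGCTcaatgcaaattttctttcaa
PCDHB15 (chr5:141245310-141245353, + strand): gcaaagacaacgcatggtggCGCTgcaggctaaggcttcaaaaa
PCDHGB4 (chr5:141387613-141387656, + strand): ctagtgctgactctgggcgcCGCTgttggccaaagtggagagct
The letters before and after the core are nearly shared within the alpha genes (ccacatgatgt before it in most) and within the beta genes (ggtgg before it), whereas PCDHB1 carries neither. Among the beta genes, ggtgg did not separate those that fell from those that did not, since PCDHB2, PCDHB4, PCDHB7 and PCDHB15 hold it too. Among the alpha genes, ccacatgatgt is held by PCDHA2, which fell. PCDHA1, PCDHA4, PCDHA5, PCDHA7 and PCDHA8, which did not pass, hold it too. PCDHA10 and PCDHA12, which fell, hold variants of it. CGCT, searched on both strands with no palindrome or overlap between matches, was on the forward strand in 26 of 26 windows, compared with 54.3% of all 35116 promoters of the same length. On either strand it was in 26 of 26 windows and 70.0% of all promoters. Between positions -110 and -10, a stretch chosen after the sequences were seen, 24 of 26 windows and 28.5% of all promoters held it on the forward strand. A match is a description of letters, not a site shown to be bound here.

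The windows of the members were poor in CpG. They held 3 to 17 CpG dinucleotides with a median of 7.0, against a median of 14.0 over all promoters, and their median GC content was 38.0%, against 58.7%. The whole windows of PCDHB12 and PCDHB5, 2 of the members whose fall in siDNMT1 held in every alternative, are printed with each CG in capitals, 7 in PCDHB12 and 6 in PCDHB5.
PCDHB12 (chr5:141208469-141208768, + strand): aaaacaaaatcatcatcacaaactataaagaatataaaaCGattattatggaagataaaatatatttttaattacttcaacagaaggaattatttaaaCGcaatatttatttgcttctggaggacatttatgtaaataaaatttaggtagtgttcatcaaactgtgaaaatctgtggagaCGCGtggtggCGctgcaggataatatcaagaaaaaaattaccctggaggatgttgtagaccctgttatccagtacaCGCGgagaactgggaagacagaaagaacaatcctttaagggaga
PCDHB5 (chr5:141134956-141135255, + strand): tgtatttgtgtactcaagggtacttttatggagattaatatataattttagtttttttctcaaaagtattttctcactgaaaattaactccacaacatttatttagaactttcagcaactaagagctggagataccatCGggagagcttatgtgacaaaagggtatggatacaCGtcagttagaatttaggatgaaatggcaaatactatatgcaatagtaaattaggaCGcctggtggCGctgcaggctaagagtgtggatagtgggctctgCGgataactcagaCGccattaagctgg

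The arrays set limits that apply to every value given here. Values are the authors' deposited log2 signals, whose normalisation is not given in the sources used here, and a signal is comparable between arrays for 1 row, not between rows. A total of 13 members, 3 alpha and 10 beta, lay in the dimmest 40% of genes, where background compresses differences. Beta genes are close relatives and alpha rows lie in a family of closely related exons, so probes may read more than 1 gene and each value is uncertain to that extent. The median SD of duplicates was 0.139 for alpha, 0.126 for beta and 0.0966 for the gamma row, against 0.0827 over all genes. In the alpha cluster the duplicate differences of different genes correlated (median r = 0.456 over 66 gene pairs, as a description over 13 duplicate pairs), so the 12 alpha rows are not 12 independent readings, whereas the median over 153 beta pairs was 0.00293.

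Marker rows were read for the label of the cells, although levels of different rows cannot be ranked and so do not by themselves show a cell type. The 8 measured pluripotency genes lay between 9.09 (LIN28B) and 12.96 (GDF3) on every array, with SOX2 at 12.18 to 12.45. Mesoderm and endoderm genes lay between 4.54 and 6.43 on all arrays. Of the neural genes, PAX6, SOX1, NEUROG2 and ELAVL3 stayed at or below 5.31. NES lay between 7.36 and 7.79, DCX lay between 7.42 and 8.02, and MAP2 ranged from 6.54 to 9.05. Of the trophoblast genes, TFAP2A ranged from 10.47 to 12.47, and the other 4 lay between 4.26 (KRT7) and 6.02 (CDX2). Of the siRNA targets, DNMT1 was 8.71 and 8.70 in siDNMT1, against 10.05 and 10.19 in siNTC-1 and 9.98 and 9.99 in siNTC-2. The dim DNMT3L row also fell in siDNMT1, with a log2 difference of -0.40 from siNTC-1 (limma, adjusted p = 0.0203). Each single depletion lowered its own target, as did the combinations except for DNMT3B in 3A+3B+3L (a log2 difference of -0.01 from siNTC-2).

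The control groups themselves differed, and this decides how each depletion is read. Along the main component of rows without a gene symbol, siDNMT1, siDNMT3B and siDNMT3L lay with siNTC-1 (8 arrays of 4 groups) and the other 8 depletions lay with siNTC-2 (18 arrays of 9 groups). The labels give no batch, and the split is a property of the values. Between siNTC-2 and siNTC-1, 11 of 31 members differed, 4 higher and 7 lower in siNTC-2, where 44.7% of all genes differed (24.2% higher and 20.5% lower). The largest was PCDHB15, at 6.32 and 6.38 in siNTC-2, against 5.09 and 5.53 in siNTC-1. A member is therefore called changed in a depletion only where limma's moderated test passed 0.05, adjusted over all 18417 genes, with the same sign against both controls together and against the nearer control alone. The adjusted p given for such a member is the larger of the 2. Both controls together means the average of the control groups, so a call was not required to hold against the farther control alone.

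Clustered protocadherins of the alpha and beta clusters were lower in siDNMT1, a single group of 2 arrays. No member was called in the groups that received DNMT1 siRNA together with other siRNA, as described below. The fall is therefore stated for siDNMT1 only, not for DNMT1 depletion in general. In siDNMT1, 13 of 31 members fell and 0 rose, while 6.86% of all genes fell and 5.68% rose. The members that fell were 4 of 12 alpha genes (PCDHA2, PCDHA3, PCDHA10 and PCDHA12) and 9 of 18 beta genes (PCDHB5, PCDHB16, PCDHB9, PCDHB10, PCDHB11, PCDHB12, PCDHB13, PCDHB14 and PCDHB18P). PCDHGB4 did not pass. The median log2 difference over the 31 members was -0.32 from siNTC-1 and -0.28 from both controls, compared with -0.03 and -0.02 over all genes. By cluster, the median from siNTC-1 was -0.33 for alpha and -0.31 for beta.

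Of the beta genes, PCDHB12 had the largest difference from siNTC-1, and PCDHB10 that from both controls. PCDHB12 was 6.84 and 6.97 in siDNMT1, against 7.48 and 7.87 in siNTC-1 and 7.23 and 7.32 in siNTC-2. Both siDNMT1 arrays lay below all 4 control arrays. The log2 difference was -0.77 ± 0.11 (SE) from siNTC-1, or 58.6% of its level, and -0.57 from both controls (limma, adjusted p = 0.000211).

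PCDHB11, its neighbour, was 5.89 and 6.03 in siDNMT1, against 6.45 and 6.86 in siNTC-1 and 6.37 and 6.18 in siNTC-2. Again the groups did not overlap, although the siNTC-1 duplicates lay far apart. The difference was -0.69 ± 0.10 from siNTC-1 and -0.50 from both controls (limma, adjusted p = 0.000261).

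Upstream in the cluster, PCDHB5 was 9.87 and 9.89 in siDNMT1, against 10.27 and 10.18 in siNTC-1 and 10.13 and 10.20 in siNTC-2. Both siDNMT1 arrays lay below every one of the other 24 arrays, of which the 20 arrays of other depletions ran from 10.12 to 10.54 with a median of 10.30. The difference was -0.34 ± 0.05 from siNTC-1 and -0.31 from both controls (limma, adjusted p = 0.000225).

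PCDHB10 was 5.38 and 5.25 in siDNMT1, against 5.83 and 5.89 in siNTC-1 and 5.95 and 5.89 in siNTC-2. It also lay below every other array, with the 20 arrays of other depletions between 5.51 and 6.21. The difference was -0.55 ± 0.13 from siNTC-1 and -0.58 from both controls (limma, adjusted p = 0.0064). PCDHB16 was 6.55 and 6.68 in siDNMT1, against 6.92 and 7.08 in siNTC-1 and 6.52 and 6.88 in siNTC-2, so here the siDNMT1 arrays overlapped siNTC-2. The other beta falls from siNTC-1 were -0.49 for PCDHB14, -0.46 for the pseudogene PCDHB18P, -0.37 for PCDHB13 and -0.28 for PCDHB9.

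The order of the genes was noted without a test. On the chromosome, PCDHB16, PCDHB9, PCDHB10, PCDHB11, PCDHB12, PCDHB13, PCDHB14 and PCDHB18P are 8 measured members in a row that passed. Of the 9 measured members before them (PCDHB1 to PCDHB8 with PCDHB17P), PCDHB5 alone passed. The run depends on that threshold. PCDHB3 and PCDHB7, before it, also had both siDNMT1 arrays below all 4 control arrays, whereas PCDHB16, PCDHB14 and PCDHB18P within it did not. PCDHB2, also before it, averaged 8.50 in siDNMT1, against 8.89 in siNTC-1 and 8.29 in siNTC-2. The last beta gene, PCDHB15, was 5.46 and 5.45 in siDNMT1, against 5.09 and 5.53 in siNTC-1 and 6.32 and 6.38 in siNTC-2. Its difference was 0.15 ± 0.12 from siNTC-1 and -0.37 from both controls, so its direction depends on the control. The run of 8 was not the same in every alternative: PCDHB16 was not called with quantile normalisation, PCDHB16 and PCDHB9 were not called with the replicate number as a block, and without the second siDNMT1 array PCDHB11, PCDHB12 and PCDHB13 were left of it. PCDHB16 was lost in 7 of 12 alternatives. Of the members before the run, PCDHB1, PCDHB4, PCDHB6, PCDHB7 and PCDHB8 were dim rows, as were PCDHB10, PCDHB13, PCDHB14 and PCDHB18P within it.

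**Figure D1:**
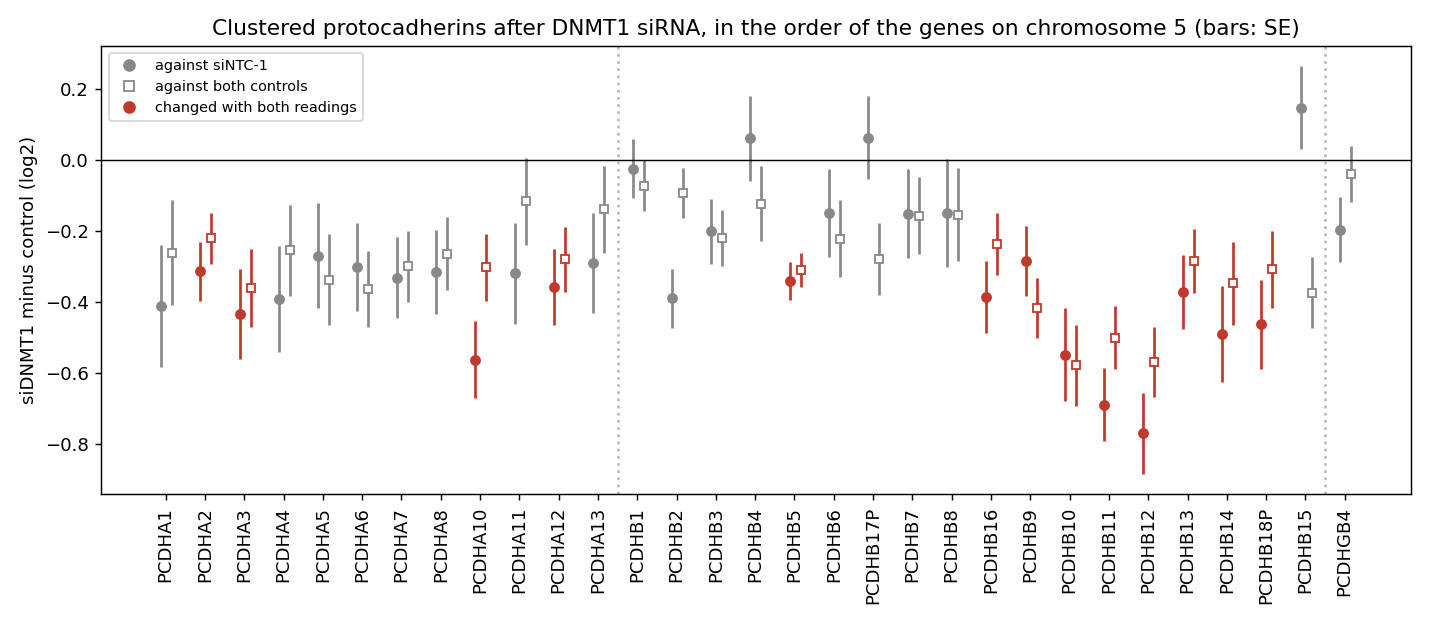
Log2 difference of the 31 members in siDNMT1, in chromosome order with dotted lines between the clusters, against siNTC-1 (circles) and against both controls (squares), with SE bars. The red members fell by both readings: 4 alpha genes and 9 beta genes, with PCDHB12 lowest at -0.77 from siNTC-1. The call for PCDHB16 was lost in 7 of 12 alternatives.

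In the alpha cluster all 12 genes had negative differences from siNTC-1, between -0.56 and -0.27, and 4 passed. These 12 rows are not 12 independent readings. PCDHA10 was 7.84 and 7.55 in siDNMT1, against 8.12 and 8.39 in siNTC-1 and 7.60 and 7.87 in siNTC-2. It lay below siNTC-1 but overlapped siNTC-2, and its difference was -0.56 ± 0.11 from siNTC-1 and -0.30 from both controls (limma, adjusted p = 0.0199). PCDHA3 was 6.08 and 6.17 in siDNMT1, against 6.54 and 6.58 in siNTC-1 and 6.42 and 6.41 in siNTC-2.

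Both PCDHA3 arrays lay below the other 24 arrays, and the difference was -0.43 ± 0.13 from siNTC-1 (limma, adjusted p = 0.0229). A row that carries all 15 alpha symbols, which is no member, did not move with them: it differed by 0.02 ± 0.07 from siNTC-1. The gamma row PCDHGB4 was 8.83 and 8.92 in siDNMT1, against 9.09 and 9.05 in siNTC-1 and 8.63 and 8.89 in siNTC-2, and its difference from siNTC-1 was -0.20 ± 0.09 (95% interval -0.39 to -0.005).

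Overlap of single arrays was counted as well. In siDNMT1, 26 of 31 members had both arrays below both siNTC-1 arrays (30.3% of all genes), and 13 had both below all 4 controls (14.6% of all genes). Below all other 24 arrays lay 7 members, PCDHA3, PCDHA5, PCDHA6, PCDHA8, PCDHB5, PCDHB9 and PCDHB10 (2.95% of all genes). In the other direction, PCDHB17P alone lay above both siNTC-1 arrays (21.6% of all genes), 0 members lay above all 4 controls (10.3%) and 0 above the other 24 arrays (1.85%).

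The number of calls in siDNMT1 rested on single arrays. It was 4 without the second siDNMT1 array (PCDHB5, PCDHB11, PCDHB12 and PCDHB13), 6 without the second siNTC-2 array, 8 without the second siNTC-1 array (all beta) and 5 when the groups compared were fitted alone. PCDHB5, PCDHB11 and PCDHB12 passed in each of the 12 alternatives, whereas every alpha call was lost in at least 4.

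**Figure D2:**
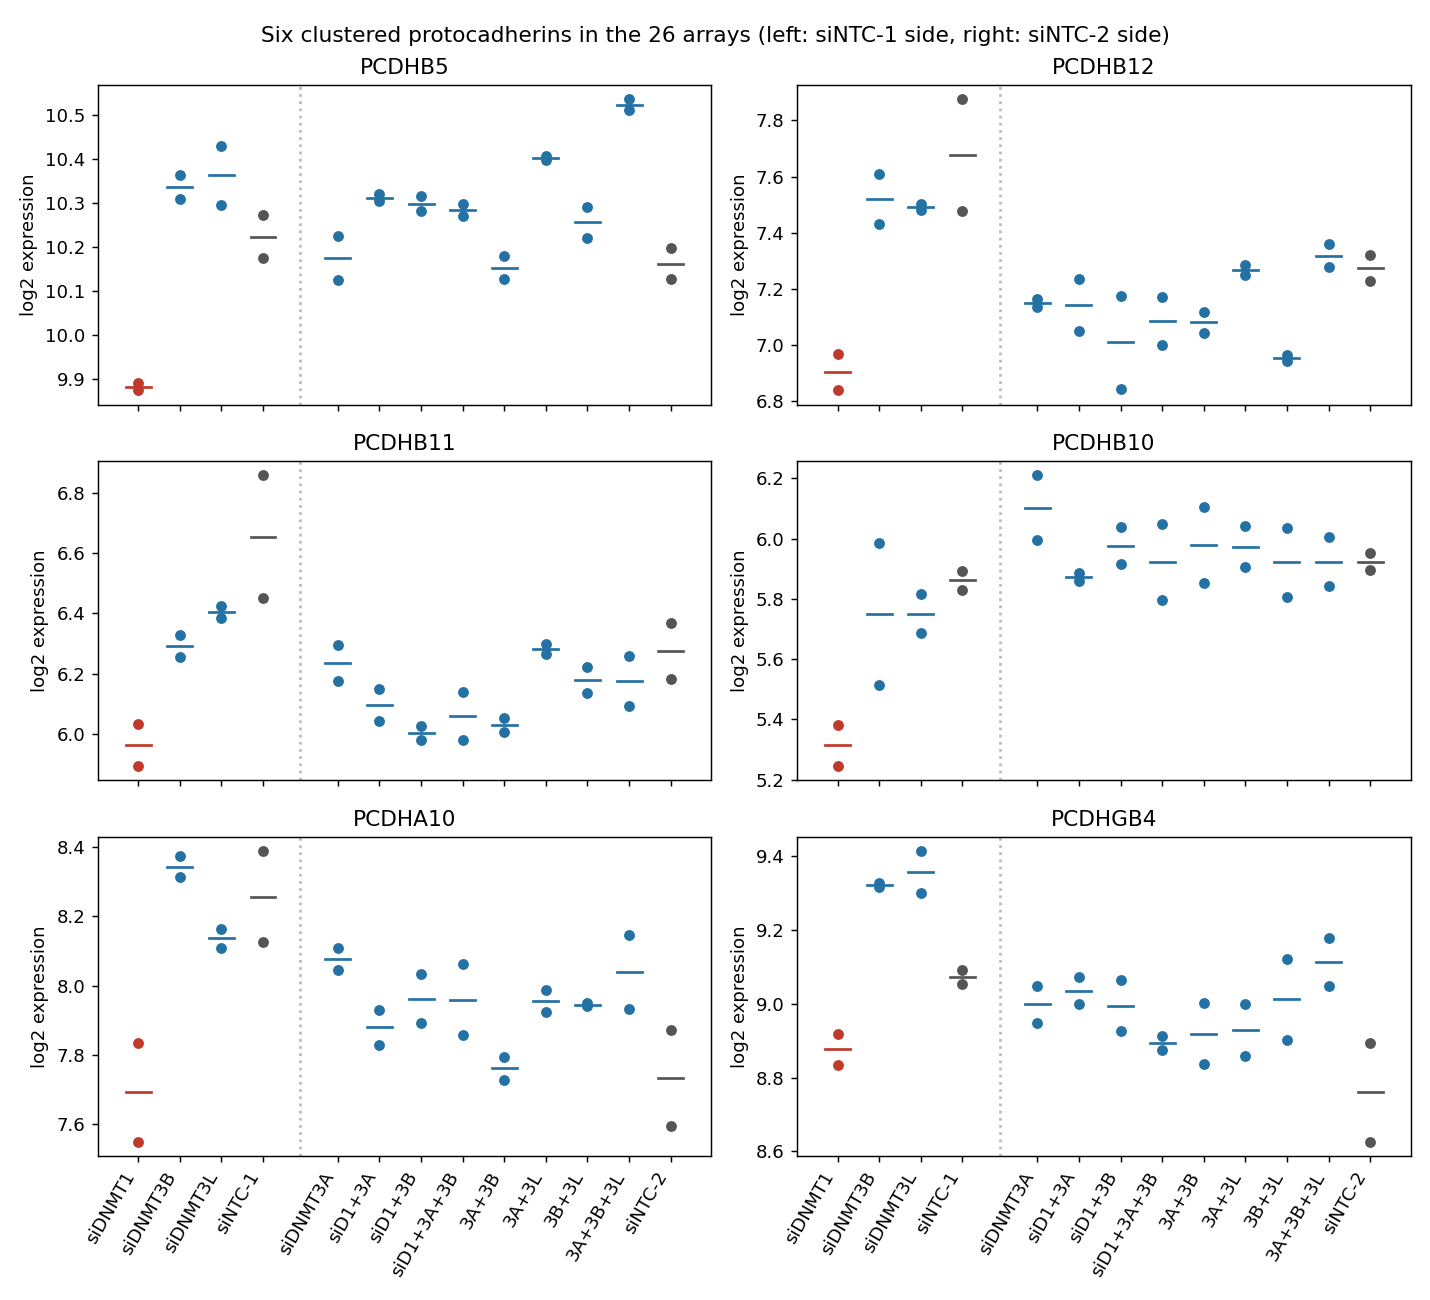
Log2 expression of 6 members on all 26 arrays (points, with a line at each group mean), with siDNMT1 in red, other depletions in blue and controls in grey. The dotted line separates the groups lying with siNTC-1 from those lying with siNTC-2. PCDHB5 and PCDHB10 in siDNMT1 lie below every other array, while PCDHB12, PCDHB11, PCDHA10 and PCDHGB4 also differ between siNTC-2 and siNTC-1.

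Compared with the other single depletions on the same side, siDNMT1 was again low, and this needs no control array. Against siDNMT3B, 16 of 31 members were lower and 0 higher (9.79% of all genes were lower and 8.49% higher): 7 alpha genes, 8 beta genes and PCDHGB4. Against siDNMT3L, 15 members were lower and 0 higher (6.33% of all genes were lower and 6.23% higher): 7 alpha genes, 7 beta genes and PCDHGB4. These comparisons share the siDNMT1 arrays with each other and with the comparison above, so they are not independent readings of it.

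PCDHGB4 was 8.83 and 8.92 in siDNMT1, against 9.33 and 9.32 in siDNMT3B and 9.30 and 9.41 in siDNMT3L. The differences were -0.45 ± 0.09 from siDNMT3B (limma, adjusted p = 0.00232) and -0.48 ± 0.09 from siDNMT3L (limma, adjusted p = 0.00199). From siDNMT3B, PCDHB5 differed by -0.45, PCDHB12 by -0.62 and PCDHA10 by -0.65. From siDNMT3L, PCDHB5 differed by -0.48, PCDHB12 by -0.59 and PCDHA10 by -0.44. The count against siDNMT3B was 9 without the second siDNMT1 array and 10 without the second siDNMT3B array. Against siDNMT3L it was 6 without the second siDNMT1 array, 9 without the first and 7 without the second siDNMT3L array. Fitting the groups compared alone gave 6 members against siDNMT3B and 2 against siDNMT3L. Between siDNMT3B and siDNMT3L, 1 member differed, PCDHB14, higher by 0.48 ± 0.14 in siDNMT3B (limma, adjusted p = 0.0299; 5.88% of all genes were higher and 4.95% lower), and that call was lost without either siDNMT3L array, without the second siDNMT3B array and when both groups were fitted alone.

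The other depletions changed few members. In siDNMT3A 0 of 31 passed (5.63% of all genes rose and 3.59% fell), with 1 higher and 1 lower by limma at an unadjusted p under 0.05 by both readings. In siDNMT3B 0 passed (7.79% rose and 8.64% fell), with 3 higher and 1 lower at that unadjusted p. The share of all genes at an unadjusted p was not counted, here or below, so such counts have no background to be set against. The median difference from the nearer control was 0.14 in siDNMT3A and 0.03 in siDNMT3B.

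In siDNMT3L the gamma gene PCDHGB4 rose and no other member passed (5.87% of all genes rose and 6.96% fell). It was 9.30 and 9.41 in siDNMT3L, against 9.09 and 9.05 in siNTC-1 and 8.63 and 8.89 in siNTC-2. Both arrays lay above all 4 controls, and the difference was 0.28 ± 0.09 from siNTC-1 and 0.44 from both controls (limma, adjusted p = 0.0364). The call was lost without either siNTC-1 array, without either siDNMT3L array and when the groups compared were fitted alone, where PCDHB14, lower, was the member called. In siDNMT3B, where it did not pass, PCDHGB4 differed by 0.25 ± 0.09 from siNTC-1 and 0.41 from both controls.

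Combinations that include DNMT1 siRNA changed 0 members each. The shares of all genes that rose and fell were 7.3% and 5.4% in siD1+3A, 7.15% and 7.07% in siD1+3B, with 4.13% and 5.26% for siD1+3A+3B. By limma at an unadjusted p under 0.05, 1 member was higher and 0 lower in siD1+3A, 1 higher and 3 lower in siD1+3B, with 0 either way for siD1+3A+3B. PCDHB5, whose fall in siDNMT1 held in every alternative, was 10.30 and 10.32 in siD1+3A, 10.32 and 10.28 in siD1+3B, with 10.30 and 10.27 for siD1+3A+3B, against 10.13 and 10.20 in siNTC-2. All 6 arrays lay above both siNTC-2 arrays, but such a position was common, held by 27.4% to 30.1% of all genes per group. PCDHB5 averaged 10.22 in siNTC-1, and the siD1+3A+3B arrays did not both lie above all 4 control arrays. DNMT1 itself was at 55.9% of siNTC-2 in siD1+3A, 49.9% in siD1+3B, with 59.5% for siD1+3A+3B, and at 37.4% of siNTC-1 in siDNMT1.

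Among the DNMT3 combinations, 3A+3B and 3B+3L changed 0 members (3.78% of all genes rose and 3.16% fell in 3A+3B; 4.26% rose and 2.97% fell in 3B+3L), with 2 and 3 members lower by limma at an unadjusted p under 0.05. In 3A+3L PCDHB5 rose and PCDHB1 fell (6.37% of all genes rose and 6.28% fell). In 3A+3B+3L PCDHB5 rose and no other member passed (6.08% rose and 6.43% fell).

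PCDHB5 was 10.54 and 10.51 in 3A+3B+3L and 10.41 and 10.40 in 3A+3L, against 10.13 and 10.20 in siNTC-2 and 10.27 and 10.18 in siNTC-1. The 3A+3B+3L arrays lay above the other 24 (0.353% of all genes). Its difference from siNTC-2 was 0.36 ± 0.05 in 3A+3B+3L and 0.24 ± 0.05 in 3A+3L (limma, adjusted p = 8.61e-05 and 0.00329). The PCDHB5 call in 3A+3B+3L held in all 12 alternatives, and that in 3A+3L was lost when the groups compared were fitted alone. PCDHB1, a dim row, was 4.24 and 4.25 in 3A+3L, against 4.57 and 4.46 in siNTC-2, and its call was lost without the first array of siNTC-1, siNTC-2 or 3A+3L and without the second of 3A+3L.

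PCDHB15 shows what the control decides. From siNTC-2 it was lower by limma in 7 depletions, with differences between -0.75 in siD1+3B and -0.39 in 3A+3B, yet in none of them did it pass against both controls. In siD1+3B it was 5.61 and 5.58, against 6.32 and 6.38 in siNTC-2 and 5.09 and 5.53 in siNTC-1. The siD1+3B arrays lay between the 2 control groups.

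Either reading alone called more members than the pair of readings in most depletions. Against both controls together, the members called were 18 in siDNMT1 (30.7% of all genes), 3 in siDNMT3A (29.5% of all genes), 6 in siDNMT3B (35.6% of all genes) and 7 in siDNMT3L (33.2% of all genes). In the combinations they were 4 in siD1+3A (27.4% of all genes), 5 in siD1+3B (27.6% of all genes), 3 in siD1+3A+3B (24.4% of all genes), 5 in 3A+3B (26.7% of all genes), 4 in 3A+3L (27.4% of all genes), 7 in 3B+3L (32.8% of all genes) and 3 in 3A+3B+3L (25.1% of all genes). Except in siDNMT1, no count was above 7 of 31.

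Against the nearer control alone, the members called were 14 in siDNMT1 (19.8% of all genes), 3 in siDNMT3A (15.8% of all genes), 6 in siDNMT3B (24.2% of all genes) and 3 in siDNMT3L (19.2% of all genes). In the combinations they were 2 in siD1+3A (22.8% of all genes), 1 in siD1+3B (25% of all genes), 1 in siD1+3A+3B (18.6% of all genes), 1 in 3A+3B (12.6% of all genes), 4 in 3A+3L (22.4% of all genes), 0 in 3B+3L (10.1% of all genes) and 5 in 3A+3B+3L (23.3% of all genes). The siDNMT1 count was again the highest of the 11.

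**Figure D3:**
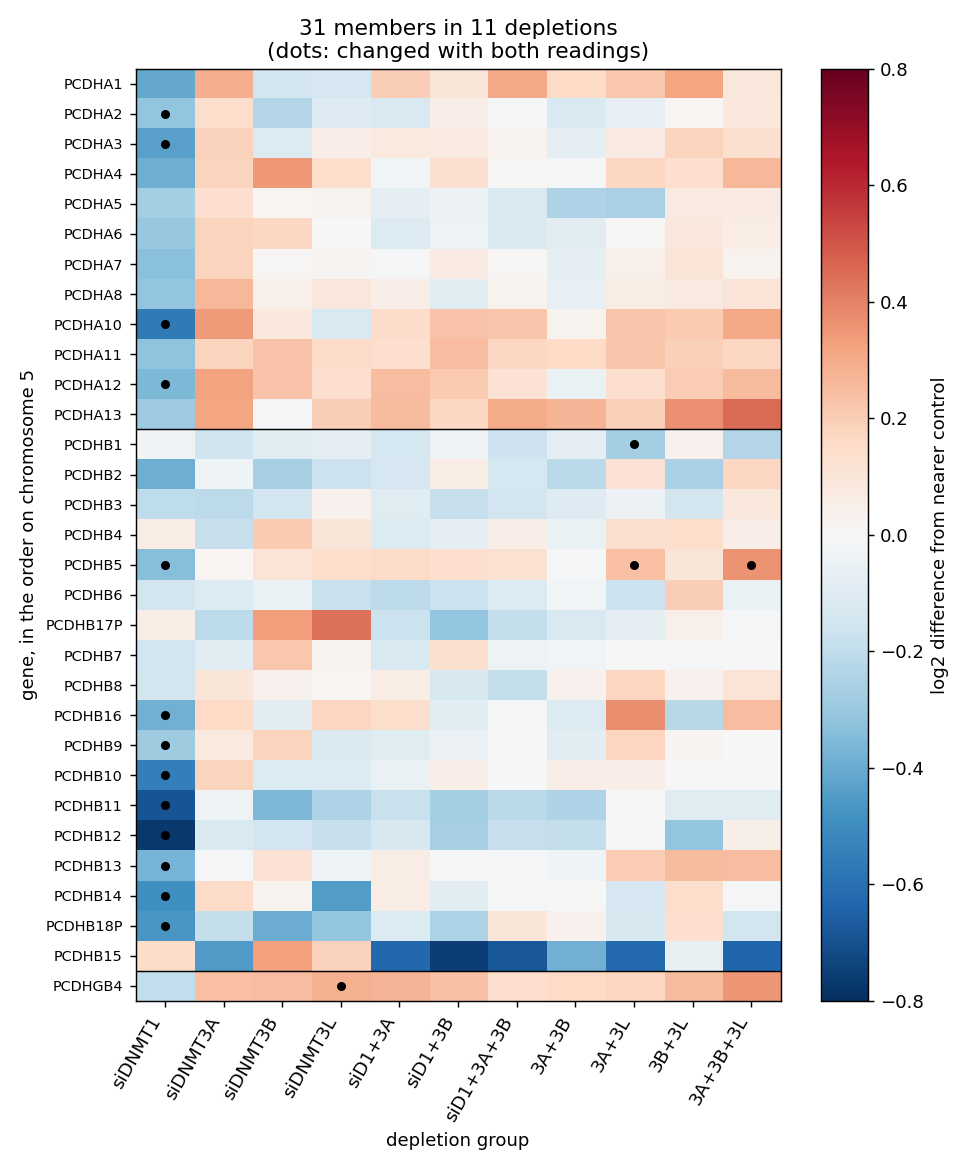
Log2 difference of the 31 members (rows, in chromosome order) from the nearer control in the 11 depletions (columns), blue for lower and red for higher, with a dot where a member changed by both readings. The column of siDNMT1 holds 13 dots, all lower, and the blue cells of PCDHB15 without dots are differences from siNTC-2 that did not pass against both controls.

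Adding an siRNA on top of others was compared among the groups lying with siNTC-2, with no control array. Adding DNMT1 siRNA to DNMT3A siRNA or to DNMT3A and DNMT3B siRNA changed 1 member: PCDHB5 rose by 0.13 ± 0.04 (limma, adjusted p = 0.027; 5.55% of all genes rose and 8.01% fell). That call was lost when either array of siD1+3A or siD1+3A+3B, or the second array of siDNMT3A or 3A+3B, was left out. PCDHB12 differed by -0.001 ± 0.08 (95% interval -0.17 to 0.17) on average.

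The alpha genes did not share a direction between the steps behind that average. Adding DNMT1 siRNA to DNMT3A siRNA gave negative differences for 12 of 12 alpha genes, from -0.29 to -0.05. Adding it to DNMT3A and DNMT3B siRNA gave positive ones for 11 of 12, up to 0.20. These 12 rows are not independent readings, and the share of all genes on either side of 0 was not counted. PCDHA10 was 7.83 and 7.93 in siD1+3A, against 8.05 and 8.11 in siDNMT3A, and 7.86 and 8.06 in siD1+3A+3B, against 7.73 and 7.79 in 3A+3B. It was lower in the first pair and higher in the second, by -0.20 and 0.20, so its average of 0.0003 describes neither step.

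The effect of DNMT1 siRNA alone, siDNMT1 minus siNTC-1, was then set against that average effect when added, a comparison added after the data were examined. It was more negative alone for 9 of 31 members (7.42% of all genes), 2 alpha genes and 7 beta genes, and more positive for 0 (8.25%). Its only control is siNTC-1, so these calls were not required to hold against both controls together. Among the 9, PCDHA10, PCDHB2, PCDHB16, PCDHB11 and PCDHB12 were also lower in siNTC-2 than in siNTC-1. PCDHB2 averaged 8.50 in siDNMT1, between 8.89 in siNTC-1 and 8.29 in siNTC-2. The difference of effects was -0.77 ± 0.14 for PCDHB12 (limma, adjusted p = 0.00114), -0.64 ± 0.13 for PCDHB11 (adjusted p = 0.00216) and -0.48 ± 0.07 for PCDHB5 (adjusted p = 0.000134). Those 3 genes passed in all 20 alternatives, and the count was 5 without the second siDNMT1 array. Set against the step siD1+3A minus siDNMT3A alone, PCDHB5, PCDHB11 and PCDHB12 were the 3 members called, all lower (6.07% of all genes lower and 6.58% higher). Set against the step siD1+3A+3B minus 3A+3B alone, 8 were called, all lower (4.69% lower and 6.28% higher), 3 of them alpha genes. The alpha result therefore depends on the step: PCDHA10 differed by -0.37 from the first (limma, adjusted p = 0.133) and by -0.76 from the second (limma, adjusted p = 0.00393). The groups compared also lie on different sides of the split between arrays, carry different siRNA mixtures and differ in how far DNMT1 fell, which cannot be told apart here.

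**Figure D4:**
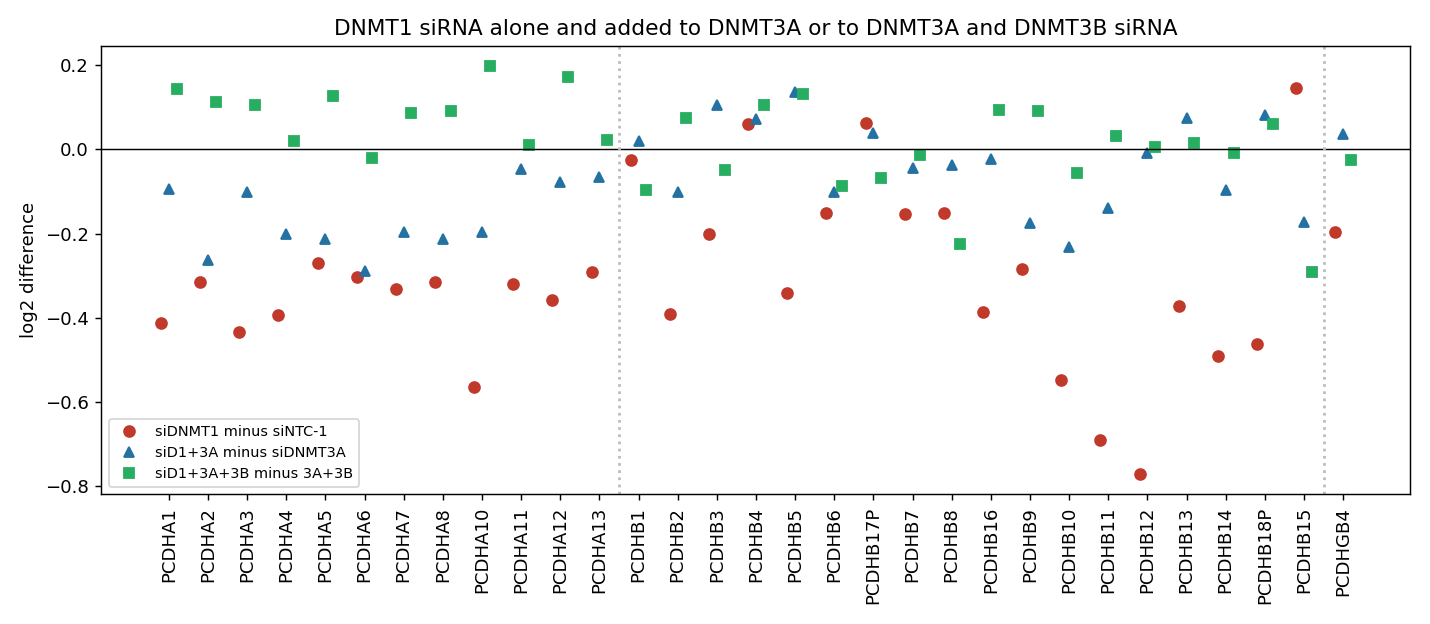
Log2 differences for DNMT1 siRNA alone (siDNMT1 minus siNTC-1, circles), added to DNMT3A siRNA (siD1+3A minus siDNMT3A, triangles) and added to DNMT3A and DNMT3B siRNA (siD1+3A+3B minus 3A+3B, squares), for the members in chromosome order. PCDHB12 is at -0.77 alone and at -0.01 and 0.005 when added, whereas the alpha genes lie below 0 for siD1+3A minus siDNMT3A (12 of 12) and mostly above 0 for siD1+3A+3B minus 3A+3B (11 of 12).

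Adding DNMT3L siRNA to DNMT3A siRNA or to DNMT3A and DNMT3B siRNA raised 4 of 31 members, all beta: PCDHB2, PCDHB5, PCDHB13 and PCDHB16 (7.18% of all genes rose and 10.5% fell). PCDHB5 was 10.41 and 10.40 in 3A+3L, against 10.23 and 10.12 in siDNMT3A, and 10.54 and 10.51 in 3A+3B+3L, against 10.18 and 10.13 in 3A+3B. In both pairs the groups did not overlap, and the average rise was 0.30 ± 0.04 (limma, adjusted p = 2.52e-05). PCDHB16 was 7.07 and 7.08 in 3A+3L, against 6.86 and 6.87 in siDNMT3A, and 6.86 and 7.03 in 3A+3B+3L, against 6.70 and 6.48 in 3A+3B. Its average rise was 0.28 ± 0.07 (limma, adjusted p = 0.00966), that of PCDHB2 0.27 ± 0.06 (adjusted p = 0.00361) and that of PCDHB13 0.25 ± 0.07 (adjusted p = 0.0255). PCDHB2 and PCDHB5 passed in all 14 alternatives, and without the second 3A+3B array 2 members were called. The groups also differed in DNMT3B, which was at least 11.89 on both arrays of 3A+3L, against 11.80 and 11.80 in siDNMT3A, and 11.63 and 11.69 in 3A+3B+3L, against 11.19 and 11.26 in 3A+3B. DNMT3B was thus higher with DNMT3L siRNA added (0.29 ± 0.04; limma, adjusted p = 0.000117), and its part in the result was not tested.

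Adding DNMT3A siRNA to DNMT1 and DNMT3B siRNA or to DNMT3B and DNMT3L siRNA raised, on average, PCDHB5 by 0.13 ± 0.04 and PCDHB16 by 0.27 ± 0.07 and lowered PCDHB1 by 0.20 on the log2 scale (limma, adjusted p = 0.0457, 0.0202 and 0.0353; 3.49% of all genes rose and 6.62% fell). The PCDHB5 rise came from 1 of the pairs: it was 10.30 and 10.27 in siD1+3A+3B, against 10.32 and 10.28 in siD1+3B, and 10.54 and 10.51 in 3A+3B+3L, against 10.29 and 10.22 in 3B+3L. The differences were -0.02 and 0.27 for PCDHB5 and 0.07 and 0.47 for PCDHB16. The count of 3 was 0 without the second siD1+3B array, the first siD1+3A+3B array or the second 3A+3B+3L array, and 1 without the second siD1+3A+3B, the second 3B+3L or the first 3A+3B+3L array. Adding DNMT3B siRNA changed 0 members (0.201% of all genes rose and 0.554% fell), with 2 lower by limma at an unadjusted p under 0.05. Neither interaction, of DNMT1 siRNA or of DNMT3L siRNA with DNMT3B siRNA, was called for any member (0.076% and 0.0326% of all genes). By limma at an unadjusted p under 0.05, 2 and 5 alpha genes were higher. The alpha rows are not independent readings, and the share of all genes at that p was not counted. For DNMT3L siRNA, 11 of 12 alpha genes were below 0 in 3A+3L minus siDNMT3A. In 3A+3B+3L minus 3A+3B, where DNMT3B differed as well, 11 of 12 were above 0. These steps subtract the same siDNMT3A and 3A+3B arrays as the DNMT1 siRNA steps, and both interactions use them. The opposite signs in both sets of steps are therefore not separate observations.

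Genes that act on or around the clusters were read from lists in siDNMT1, where 12.5% of all genes changed in either direction. Of 14 regulators, REST and SMC1A fell and NIPBL rose. REST, a repressor of neuronal genes, was 9.76 and 9.72 in siDNMT1, against 10.24 and 10.18 in siNTC-1 and 10.06 and 10.12 in siNTC-2, a difference of -0.47 ± 0.05 from siNTC-1 (limma, adjusted p = 1.38e-06). REST also fell in siDNMT3B and siDNMT3L, with log2 differences of -0.45 and -0.41 from siNTC-1. The beta and alpha members did not pass in those groups, and the part of REST in the result was not tested. CTCF, which binds the promoters, differed by 0.03 ± 0.06 (95% interval -0.09 to 0.15) and SMCHD1, a silencing factor of these clusters, by -0.03 ± 0.05 in siDNMT1 from siNTC-1.

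Among 12 genes for partners of the proteins, FYN, a kinase of the Src family, fell by 0.44 and AXIN1 fell by 0.29 on the log2 scale, while CYFIP1, a subunit of the WAVE actin-regulating complex, rose by 0.33. Of 11 non-clustered protocadherins, which lie elsewhere in the genome, PCDH7 and PCDH18 fell in siDNMT1 and 0 rose, and both also fell in siDNMT3B and siDNMT3L. PCDH7 was 5.72 and 5.69 in siDNMT1, against 6.21 and 6.28 in siNTC-1 and 6.46 and 6.45 in siNTC-2.

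Genes that flank or separate the clusters were read in siDNMT1 too, where 12.5% of all genes changed in either direction. Of 20 measured, VTRNA1-2, a vault RNA gene before the alpha cluster, rose by 0.42 and DELE1, a mitochondrial stress factor beyond the gamma cluster, fell by 0.31 on the log2 scale in siDNMT1. TAF7, a subunit of the general transcription factor TFIID that lies between the beta and gamma clusters, was 8.49 and 8.48 in siDNMT1, against 8.41 and 8.48 in siNTC-1 and 8.11 and 8.13 in siNTC-2. It did not pass, with a difference of 0.04 ± 0.06 from siNTC-1 (95% interval -0.09 to 0.17). The median over the 20 genes was -0.01 from siNTC-1.

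Some markers moved with the falls in siDNMT1, where 5.68% of all genes rose and 6.86% fell. Pluripotency genes rose in 3 of 8 (L1TD1, GDF3 and DPPA4), neural genes fell in 1 of 7 (MAP2, by 1.03 on the log2 scale), trophoblast genes fell in 1 of 5 (TFAP2A, by 0.50) and mesoderm and endoderm genes changed in 0 of 7. In siDNMT3B, where 0 members passed, MAP2 differed by -2.33 and TFAP2A by -1.68 from siNTC-1. The part of these markers in the result was not tested, and in bulk RNA fewer expressing cells and less transcript per cell cannot be told apart.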

How the data were processed

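Transcript levels of 26 arrays were analysed. The deposited log2 values, per the file headers 1 column per array, hold 33297 rows. The submitters' processing notes name Partek only. For background correction, normalisation and build, the status is: not given in the sources used here. That the base is 2 was inferred from the range (3.04 to 14.87), and array medians ran from 6.28 to 6.33. The number of arrays limits the precision.

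The platform annotation gave 19460 rows with 1 symbol, 1754 with several and 12083 with none. Of the first, 19429 matched RefSeq GRCh38.p14 gene numbers and 0 were renamed. The brightest row per symbol left 18417 genes, with no filter on low values. Every value column matched a sample by its name.

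limma 3.58.1 (R 4.3.3) fitted 13 group means to 26 arrays, leaving 13 residual degrees of freedom, with p-values two-sided and adjusted by Benjamini and Hochberg over all genes at 0.05. The script was tested on simulated data. Depletions were read against both controls together and against the nearer one, which was taken from earlier results of these data and checked on the rows without a symbol. Members, lists and comparisons were chosen with earlier results of these data known. The lists of other genes, and how many were measured, were regulators (14 of 15), partners (12 of 15), non-clustered protocadherins (11 of 12), flanking genes (20 of 20), pluripotency (8 of 11), neural (7 of 8), mesoderm and endoderm (7 of 7), trophoblast (5 of 5) and the 4 targets. Any member could be named. Values on each array are given for the 2 called members per cluster with the largest difference in each direction, and for other members needed to describe a pattern, chosen after their values were seen. Up to 3 called genes are named per list.

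Alternatives were removal of the 40% dimmest genes, quantile normalisation, a trended and robust variance prior, the replicate number as a block, the groups compared alone, the mean of all rows of a symbol, either control reading alone, each array left out and, chosen after seeing the data, single steps of the DNMT1 siRNA addition. Same-numbered arrays of different groups did not deviate together (correlations of -0.258 to 0.191, median -0.00188, over 78 group pairs). The main fit did not pair arrays by number. Such correlations cannot exclude that same-numbered arrays were handled together, and the labels do not say.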

Additional observations from a re-analysis of the deposited data

Results flagged for a closer look

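The effect of DNMT1 siRNA differed between its use alone (siDNMT1 minus siNTC-1) and its addition to DNMT3A siRNA or to DNMT3A and DNMT3B siRNA, by a test of that difference in limma, for 9 members. The differences of effects on the log2 scale were -0.56 for PCDHA10, -0.41 for PCDHA12, -0.38 for PCDHB2, -0.48 for PCDHB5, -0.42 for PCDHB16, -0.64 for PCDHB11, -0.77 for PCDHB12, -0.42 for PCDHB13 and -0.53 for PCDHB18P. The largest adjusted p of the 9 was 0.0416, for PCDHA12, and PCDHB2 was not among the genes called in siDNMT1 itself. With siNTC-1 as the only control, the calls were not required to hold against both controls together. PCDHB2 averaged 8.50 in siDNMT1, between 8.89 in siNTC-1 and 8.29 in siNTC-2. The added effect is a mean of steps that were opposite for PCDHA10 (-0.20 in siD1+3A minus siDNMT3A and 0.20 in siD1+3A+3B minus 3A+3B) and PCDHA12 (-0.08 and 0.17). Against the first step alone the difference was -0.37 for PCDHA10 and -0.28 for PCDHA12, and neither passed. PCDHB5, PCDHB11 and PCDHB12 passed against each step.

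The row that carries 15 alpha symbols, which was not used for members, was higher in siDNMT3B, at 5.96 and 5.90, against 5.65 and 5.72 in siNTC-1 and 5.67 and 5.58 in siNTC-2. Its difference was 0.25 ± 0.07 from siNTC-1 and 0.28 from both controls (limma, adjusted p = 0.0148). In siDNMT3B 0 of the 12 alpha members passed.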

How the results depend on the processing

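No result reversed under any alternative that was run, and these did not include the farther control alone. Of 903 values recomputed for single members called in any comparison, 671 kept their direction and side of the threshold and 232 kept their direction but missed it. Counts of members that moved by more than 1.5 times are as follows, and the cause was not tested unless fewer arrays or a single reading explain it by construction. Fitting the groups compared alone gave 5 for siDNMT1, 1 for 3A+3L, 7 for siNTC-2 minus siNTC-1, 0 for DNMT1 siRNA added, 8 for DNMT3L siRNA added, 6 for siDNMT1 minus siDNMT3B, 2 for siDNMT1 minus siDNMT3L and 0 for siDNMT3B minus siDNMT3L. Set against the step siD1+3A minus siDNMT3A alone, an alternative chosen after seeing the data, DNMT1 siRNA alone against added gave 3. Without the dimmest genes it was 1 for siDNMT3A, siDNMT3B, siD1+3A, siD1+3B and 3B+3L, and 2 for siDNMT3L and 3A+3B+3L. Quantile normalisation gave 1 for siDNMT3A, 3A+3L and 3B+3L and 2 for siDNMT3L. The trended and robust prior gave 1 for siDNMT3A, siDNMT3B, siD1+3A and 3B+3L, 2 for 3A+3B+3L and siDNMT3B minus siDNMT3L, and 3 for siDNMT3L. Read against both controls together only, counts were 3 for siDNMT3A, 6 for siDNMT3B, 7 for siDNMT3L, 4 for siD1+3A, 5 for siD1+3B, 3 for siD1+3A+3B, 5 for 3A+3B, 4 for 3A+3L, 7 for 3B+3L and 3 for 3A+3B+3L. Against the nearer control only they were 3 for siDNMT3A, 6 for siDNMT3B, 3 for siDNMT3L, 2 for siD1+3A, 1 for siD1+3B, siD1+3A+3B and 3A+3B, 4 for 3A+3L and 5 for 3A+3B+3L.

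With each array left out in turn, counts ran from 4 to 13 for siDNMT1, 0 to 1 for siDNMT3A, siDNMT3B, siD1+3A, siD1+3A+3B and 3A+3B, 0 to 2 for siDNMT3L and 3B+3L, 0 to 3 for siD1+3B, 1 to 3 for 3A+3L and 1 to 2 for 3A+3B+3L. They ran from 6 to 9 for siNTC-2 minus siNTC-1, 0 to 1 for DNMT1 siRNA added, 0 to 2 for DNMT3A siRNA added, 2 to 4 for DNMT3L siRNA added, 9 to 12 for siDNMT1 minus siDNMT3B, 6 to 11 for siDNMT1 minus siDNMT3L, 0 to 1 for siDNMT3B minus siDNMT3L and 5 to 9 for DNMT1 siRNA alone against added. DNMT3B siRNA added and both interactions stayed at 0. With the replicate number as a block, the count was 11 for siDNMT1, and 14 for siDNMT1 minus siDNMT3B and for siDNMT1 minus siDNMT3L, and no count moved by more than 1.5 times. Calling against the farther control alone was planned but not run. Dim signal limits 13 members.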

Other observations

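PCDHA2 has a second, dimmer row. It was 4.67 and 4.58 in siDNMT1, against 4.86 and 4.84 in siNTC-1 and 4.85 and 4.82 in siNTC-2. The siDNMT1 arrays lay below all 4 control arrays, but the row did not pass (a log2 difference of -0.23 ± 0.08 from siNTC-1, limma, adjusted p = 0.0912), whereas the brighter PCDHA2 row did.

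Vault RNA genes before the alpha cluster were among the flanking genes with the widest differences. VTRNA1-1 rose in siDNMT3L by 1.16 from siNTC-1 and 1.88 from both controls on the log2 scale, and in siDNMT3B by 0.64 and 1.36, while 0 of 12 alpha members passed in either group.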
